A study of Homo sapiens with 3 samples.

Results

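The miR-17 to miR-92a cluster is a polycistron: a single primary transcript of the long non-coding RNA gene MIR17HG carries 6 miRNA hairpins. Its 9 mature miRNAs examined here were hsa-miR-17-5p, hsa-miR-17-3p, hsa-miR-18a-5p, hsa-miR-18a-3p, hsa-miR-19a-3p, hsa-miR-20a-5p, hsa-miR-19b-3p, hsa-miR-92a-3p and hsa-miR-92a-1-5p. They were taken by name from the 2588 mature miRNAs listed in the deposited data, and the rows of a miRNA with several genomic loci were summed. All further names are given without the prefix for human.

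Small RNA of 3 untreated cancer-derived cell lines was sequenced, with 1 library per line. C643 derives from thyroid cancer, ES-2 from ovarian cancer and Huh-7 from liver cancer, and in each case parental cells were collected 48 h after they had been seeded. The study set out to inhibit miR-21-5p in cancer cells, and these libraries profile the miRNAs of lines in that programme. Without replicates, no difference between lines has a replicate check and none was tested, so intervals below cover counting error only.

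MiRNAs guide Argonaute proteins to target mRNAs, mainly by pairing of the seed, bases 2 to 8 of the mature strand. The hairpins of a polycistron are cut from the primary transcript by Drosha and trimmed by Dicer, after which one strand of the duplex is usually kept as the guide while the passenger strand is degraded. The cluster is a transcriptional target of MYC and E2F factors, is amplified in some lymphomas and is widely described as oncogenic. Its targets include BCL2L11, which promotes apoptosis, and CDKN1A, which arrests the cell cycle.

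The members fall into 4 seed families. Mature sequences were taken from RefSeq (GRCh38.p14) and are printed 5′ to 3′ with the seed in capitals. The seed defines the families, while near-identity over the whole sequence limits which members can be told apart by sequencing. The miR-17 seed is shared by
miR-17-5p: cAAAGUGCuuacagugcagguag
miR-20a-5p: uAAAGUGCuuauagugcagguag
The miR-18 seed, which differs from it by an internal base, is carried by
miR-18a-5p: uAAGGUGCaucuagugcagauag
The miR-19 seed is shared by
miR-19a-3p: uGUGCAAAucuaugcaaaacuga
miR-19b-3p: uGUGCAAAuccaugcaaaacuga
The miR-92 seed is carried by
miR-92a-3p: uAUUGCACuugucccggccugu
The opposite arms have seeds of their own:
miR-17-3p: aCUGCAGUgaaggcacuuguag
miR-18a-3p: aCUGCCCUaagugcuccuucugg
miR-92a-1-5p: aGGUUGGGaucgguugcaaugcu

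MIR17HG spans chr13:91347820-91354579 on the plus strand (GRCh38, GENCODE 29), and the 6 hairpins lie within 787 bases of it, from 91350605 to 91351391. Their order from the 5′ end is MIR17, MIR18A, MIR19A, MIR20A, MIR19B1 and MIR92A1. All 6 are exonic in 2 of the 3 annotated host transcripts, and no exon of the remaining one contains them. The last hairpin, MIR92A1 (chr13:91351314-91351391), gives both miR-92a-1-5p and miR-92a-3p and is shown with its arms in capitals because both of its products are among the members:
MIR92A1: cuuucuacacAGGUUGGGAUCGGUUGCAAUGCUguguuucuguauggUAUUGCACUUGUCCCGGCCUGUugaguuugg
The second hairpin, MIR18A (chr13:91350751-91350821), is the one whose arm preference differed between libraries:
MIR18A: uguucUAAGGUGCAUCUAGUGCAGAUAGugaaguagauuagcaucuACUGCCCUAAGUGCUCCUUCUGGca

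Depth was 8183100, 1663181 and 2173587 miRNA reads in C643, ES-2 and Huh-7, as recovered from the scaled values. A miRNA without a read can thus hold up to 3.67e-05%, 0.00018% and 0.000138% of the respective library (3 reads). Abundance is given as a share of all miRNA reads of a library, which no scaling between libraries can change. The liver identity of Huh-7 was visible in miR-122-5p, a hepatocyte miRNA named here only for this check, which held 13.3% of reads there, 0.00572% in C643 and 0.000361% in ES-2. No comparable marker was examined for C643 or ES-2.

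The 9 members together held 2.65% of miRNA reads in C643 (Wilson 95% CI 2.64 to 2.67) compared with 5.68% in ES-2 (5.64 to 5.71) and 7.93% for Huh-7 (7.89 to 7.97). Nearly all of this was miR-92a-3p, which contributed 95.2%, 92.5% and 92.95% of the members' reads in C643, ES-2 and Huh-7. Without it, the other 8 members summed to 0.127%, 0.428% and 0.559%. The members thus had very unequal read counts. How well each sequence is captured in a library was not examined, so ratios between members are ratios of reads. The sums include chromosome X rows of miR-19b-3p and miR-92a-3p. With chromosome 13 rows only, the 9 members held 1.40%, 3.07% and 4.32% in C643, ES-2 and Huh-7. At 100 deposited units or more in all 3 libraries were 5 of the 9 members (miR-17-5p, miR-20a-5p, miR-19b-3p, miR-92a-3p and miR-92a-1-5p), against 3.75% of all 2588 miRNAs.

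Of the miR-92 seed, miR-92a-3p had 206878, 87339 and 160209 reads in C643, ES-2 and Huh-7. These were shares of 2.53% (2.52 to 2.54), 5.25% (5.22 to 5.29) and 7.37% (7.34 to 7.41), and it ranked 8, 5 and 3 among all miRNAs. It was the highest member in every library, by 69.0-fold, 34.9-fold and 44.2-fold over miR-20a-5p, which was next. For every read of miR-17-5p there were 110.4 reads of miR-92a-3p in C643 (105 to 116), 51.9 in ES-2 (49.5 to 54.5) and 53.2 for Huh-7 (51.3 to 55.1). The ratio in C643 therefore lay above both others by more than counting error, whereas those of the other two had overlapping intervals.

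The miR-17 seed members, which target cell cycle and apoptosis regulators, came next. miR-17-5p had 1874, 1682 and 3013 reads in the 3 libraries, in the same order, shares of 0.0229% (0.0219 to 0.0240), 0.101% (0.0964 to 0.106) and 0.139% (0.134 to 0.144). miR-20a-5p had 3000, 2505 and 3628 reads, shares of 0.0367% (0.0354 to 0.0380), 0.151% (0.145 to 0.157) and 0.167% (0.162 to 0.172). It exceeded miR-17-5p in every library, by 1.60-fold in C643 (1.51 to 1.70), 1.49-fold in ES-2 (1.40 to 1.59) and 1.20-fold for Huh-7 (1.15 to 1.26). The excess in Huh-7 lay below that of both other libraries.

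The miR-19 seed members are known for their oncogenic activity in B-cell lymphoma models. miR-19b-3p had 1470 reads in C643, 916 for ES-2 and 1480 for Huh-7, shares of 0.0180% (0.0171 to 0.0189), 0.0551% (0.0516 to 0.0588) and 0.0681% (0.0647 to 0.0716). miR-19a-3p had 505, 405 and 887 reads, shares of 0.00617% (0.00566 to 0.00673), 0.0244% (0.0221 to 0.0268) and 0.0408% (0.0382 to 0.0436). Against miR-17-5p, miR-19a-3p stood at 0.269 (0.244 to 0.297), 0.241 (0.215 to 0.269) and 0.294 (0.273 to 0.317). miR-19a-3p thus kept a narrow range relative to miR-17-5p, from 0.241 to 0.294, with C643 between ES-2 and Huh-7.

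The miR-18 seed member miR-18a-5p, whose primary hairpin is known to be processed with the help of hnRNP A1, was the most variable of the 6 main arms. With C643 first, then ES-2 and Huh-7, it had 287, 792 and 1894 reads, shares of 0.00351% (0.00312 to 0.00394), 0.0476% (0.0444 to 0.0511) and 0.0871% (0.0833 to 0.0911). Relative to miR-17-5p it stood at 0.153 (0.135 to 0.173), 0.471 (0.432 to 0.513) and 0.629 (0.593 to 0.666). These 3 intervals were separate, with C643 lowest and Huh-7 highest. In rank among all miRNAs it stood at 218, 82 and 75.

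Among the passenger arms, miR-92a-1-5p was the most abundant and the most even. C643 had 2840 reads of it, ES-2 633 and Huh-7 740, shares of 0.0347% (0.0335 to 0.0360), 0.0381% (0.0352 to 0.0411) and 0.0340% (0.0317 to 0.0366). The 3 intervals overlapped, although its share in ES-2 was 1.12-fold that in Huh-7 (1.004 to 1.24). miR-18a-3p had 406, 135 and 455 reads, shares of 0.00496%, 0.00812% and 0.0209%, while miR-17-3p had no read in C643, 45 in ES-2 and 47 for Huh-7. Of the 3 other arms of these hairpins, which were not among the members, miR-20a-3p had 63, 32 and 37 reads in C643, ES-2 and Huh-7. miR-19b-1-5p had a single read, in Huh-7, and miR-19a-5p had none.

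**Figure D1:**
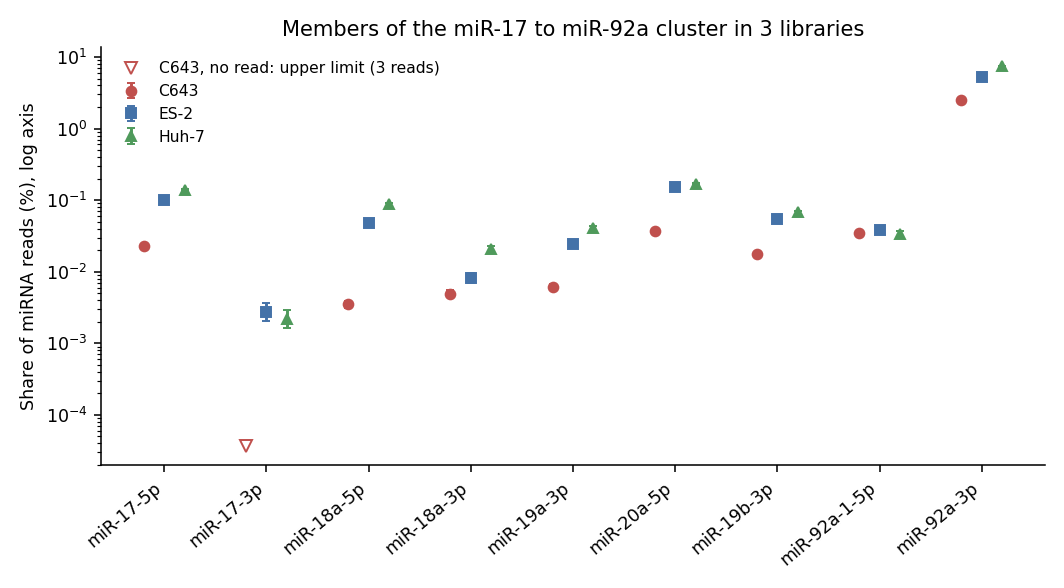
Share of miRNA reads of each member (per cent, log axis) in C643, ES-2 and Huh-7, with members in transcript order; bars are Wilson 95% intervals and the open triangle is the upper limit for miR-17-3p in C643, where no read was found. C643 is lowest for 8 of the 9 members, the exception being miR-92a-1-5p, whose shares run from 0.0340% to 0.0381%.

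The order of the members was compared within each library, since a ratio within a library needs no scaling. Values were summed over loci, so those of miR-19b-3p and miR-92a-3p include rows of chromosome X. From high to low, ES-2 and Huh-7 began with miR-92a-3p, miR-20a-5p and miR-17-5p, and ended with miR-18a-3p and miR-17-3p. In C643, miR-92a-1-5p stood in place 3, with miR-20a-5p 1.06-fold above it (1.003 to 1.11), and miR-18a-5p fell to the place before last. Neighbours in each order differed by more than counting error, that pair only just. Spearman's rho of the order over the 9 members was 0.967 between ES-2 and Huh-7, 0.817 between C643 and ES-2 and 0.717 between C643 and Huh-7, as a description over members that share their library.

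Of the 36 pairs of members, 29 stood in the same order in all 3 libraries. In 5 pairs C643 had the opposite order to both other lines, and in 2 pairs ES-2 and Huh-7 differed from each other. Each of these 7 pairs involved miR-18a-5p or miR-92a-1-5p. miR-18a-5p exceeded miR-92a-1-5p by 1.25-fold in ES-2 (1.13 to 1.39) and 2.56-fold for Huh-7 (2.35 to 2.79), but had 0.101 of its reads in C643 (0.0892 to 0.114). miR-17-5p exceeded miR-92a-1-5p by 2.66-fold and 4.07-fold in ES-2 and Huh-7, and had 0.660 of its reads in C643 (0.622 to 0.700).

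A caveat of these orders is that 2 of the mature sequences are made at more than one place in the genome. miR-19b-3p and miR-92a-3p are also produced, with identical sequence, from MIR19B2 and MIR92A2 of the paralogous miR-106a to miR-363 cluster on chromosome X. The hairpins diverge from the first base after the mature sequence, as shown by the next 6 bases in capitals:
miR-92a-3p, chromosome 13: uauugcacuugucccggccuguUGAGUU
miR-92a-3p, chromosome X: uauugcacuugucccggccuguGGAAGA
miR-19b-3p, chromosome 13: ugugcaaauccaugcaaaacugaCUGUGG
miR-19b-3p, chromosome X: ugugcaaauccaugcaaaacugaUUGUGA
A read that ends with the mature sequence therefore matches both loci equally.

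In the deposited rows, chromosome 13 held 50.7% of miR-92a-3p reads in C643 (exact 95% CI 50.4 to 50.9), 50.8% of those in ES-2 (50.5 to 51.1) and 51.5% for Huh-7 (51.3 to 51.8). For miR-19b-3p it held 47.2% (44.6 to 49.8), 47.3% (44.0 to 50.6) and 43.9% (41.4 to 46.5). The split was thus close to even in every library for both miRNAs. How reads that fit both loci were placed is not known, so the chromosome 13 rows need not measure what that locus made. The opposite arms of the same hairpins differ in sequence and can be told apart. miR-92a-1-5p of chromosome 13 had 2840 reads against 22 of miR-92a-2-5p of chromosome X in C643, with 633 against 0 for ES-2 and 740 against 0 for Huh-7, so that chromosome 13 held 99.2% (98.8 to 99.5), 100% (99.4 to 100) and 100% (99.5 to 100). Passenger arms of different hairpins need not be kept at the same rate, so these shares are no measure of where miR-92a-3p was made.

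With the chromosome 13 rows alone, miR-92a-3p stood at 55.9, 26.4 and 27.4 reads per read of miR-17-5p in C643, ES-2 and Huh-7 and remained the highest member. The number of pairs in the same order was 29 of 36 here too, but the set of pairs changed, each change involving miR-19b-3p. miR-19b-3p then lay below miR-92a-1-5p in every library, and miR-18a-5p exceeded it in both ES-2 and Huh-7. The ratio of miR-19a-3p to miR-19b-3p, which was 0.344, 0.442 and 0.599 in C643, ES-2 and Huh-7 over both loci, became 0.728 (0.648 to 0.817), 0.935 (0.815 to 1.07) and 1.36 (1.23 to 1.51). It thus turned in Huh-7 and fell within counting error in ES-2.

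Several main arms have look-alikes that differ by 1 or 2 bases, with positions counted from 1 at the 5′ end. The nearest relatives on chromosome X are
miR-106a-5p: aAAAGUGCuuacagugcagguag
miR-18b-5p: uAAGGUGCaucuagugcaguuag
miR-17-5p differs from miR-106a-5p by C1A and from miR-20a-5p by C1U and C12U. miR-18a-5p differs from miR-18b-5p by A20U, and miR-19a-3p from miR-19b-3p by U11C. Few reads fell on the relatives: miR-106a-5p had 51, 38 and 42 reads in C643, ES-2 and Huh-7, and miR-18b-5p had 4 reads in Huh-7 and none in C643 or ES-2. miR-20b-5p had 15, 0 and 4 reads. Adding the reads of miR-106a-5p to those of miR-17-5p moved its ratio to miR-17-3p from 37.4 to 38.2 in ES-2. All arms specific to the chromosome X cluster summed to 323, 38 and 56 reads in C643, ES-2 and Huh-7, of which miR-363-3p had 185, 0 and 6.

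The part of each seed family that the members gave differed by family, counted over all loci of a miRNA. The miR-17 family, which also includes miR-93-5p and miR-106b-5p of the chromosome 7 paralog, held 0.337%, 0.712% and 1.81% of reads in C643, ES-2 and Huh-7, and the members gave 17.7%, 35.3% and 16.9% of it. The larger part was miR-93-5p, at 0.247%, 0.412% and 1.37% of all miRNA reads. The miR-19 family came from the members alone, with 0.0241%, 0.0794% and 0.109% of reads. Likewise, the listed miR-18 family was miR-18a-5p except for the 4 reads of miR-18b-5p in Huh-7. Of the miR-92 family, at 3.12%, 5.71% and 8.45%, miR-92a-3p gave 81.1%, 91.99% and 87.2%, the rest being mostly miR-25-3p and miR-92b-3p. With chromosome 13 rows only, the members' part fell to 60.7%, 63.4% and 64.9% of the miR-19 family in C643, ES-2 and Huh-7. For the miR-92 family it fell to 41.1%, 46.7% and 44.9%. These parts depend on how reads that fit both loci were placed.

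Next, both arms of each hairpin were compared. MIR20A favoured its 5p arm by 47.6-fold in C643 (37.1 to 62.1), 78.3-fold for ES-2 (55.3 to 115) and 98.1-fold for Huh-7 (71.0 to 139). MIR17 favoured its 5p arm by at least 625-fold in C643 against the limit of 3 reads, by 37.4-fold in ES-2 (27.8 to 51.4) and by 64.1-fold in Huh-7 (48.1 to 87.4). MIR19A favoured its 3p arm by at least 168-fold, 135-fold and 296-fold. The chromosome 13 rows of MIR92A1 favoured the 3p arm by 36.9-fold (35.6 to 38.3), 70.1-fold (64.8 to 75.9) and 112-fold (104 to 120). The intervals for MIR92A1 do not cover the unknown placement of miR-92a-3p reads between loci. The guide strand of these 4 hairpins was the same in all 3 libraries.

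MIR18A was the exception. Its 5p arm exceeded its 3p arm 5.87-fold in ES-2 (4.88 to 7.09) and 4.16-fold for Huh-7 (3.76 to 4.62), with 792 against 135 and 1894 against 455 reads. In C643 the order was turned, with 287 reads of miR-18a-5p and 406 of miR-18a-3p, a 5p to 3p ratio of 0.707 (0.606 to 0.824). Among 38 hairpins with both arms at 10 units or more in all 3 libraries, the higher arm in C643 differed from that of both other lines in 3, or 7.89%, which were MIR18A, MIR339 and MIR671. On the log2 scale, the 5p to 3p ratio of MIR18A in C643 minus the mean of ES-2 and Huh-7 was -2.81, the lowest of the 38, whose median was -0.35. With both arms at 100 units or more, none of 12 hairpins turned, but MIR18A was not among these.

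The arms of many of these 38 hairpins were closer together in C643. Of the 38, 23 had their smallest arm difference in C643, 6 had it in ES-2 and 9 had it for Huh-7, and the median fold between arms was 6.75, 11.6 and 13.3. Over all hairpins with both arms at 10 units or more in the library concerned (67, 71 and 77) it was 10.6, 13.7 and 9.48, lowest in Huh-7. Whether the shift over the 38 has a part in the turn of MIR18A was not tested. Arms at least 10-fold apart were found in 50.7% of 67 hairpins in C643, 54.9% of 71 for ES-2 and 48.1% of 77 for Huh-7. Of the cluster's hairpins with both arms at 10 units or more, 1 of 2 reached this in C643 (MIR92A1). In each of ES-2 and Huh-7 it was 3 of 4 (MIR17, MIR20A and MIR92A1). A strong preference was thus common among hairpins generally. MIR17 and MIR20A failed the filter in C643, where miR-17-3p had no read and miR-20a-3p 7.39 units. Their arms were at least 625-fold and 47.6-fold apart there. The filter takes more reads in C643, where 1 read was worth 0.117 units, against 0.694 in ES-2 and 0.282 in Huh-7.

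**Figure D2:**
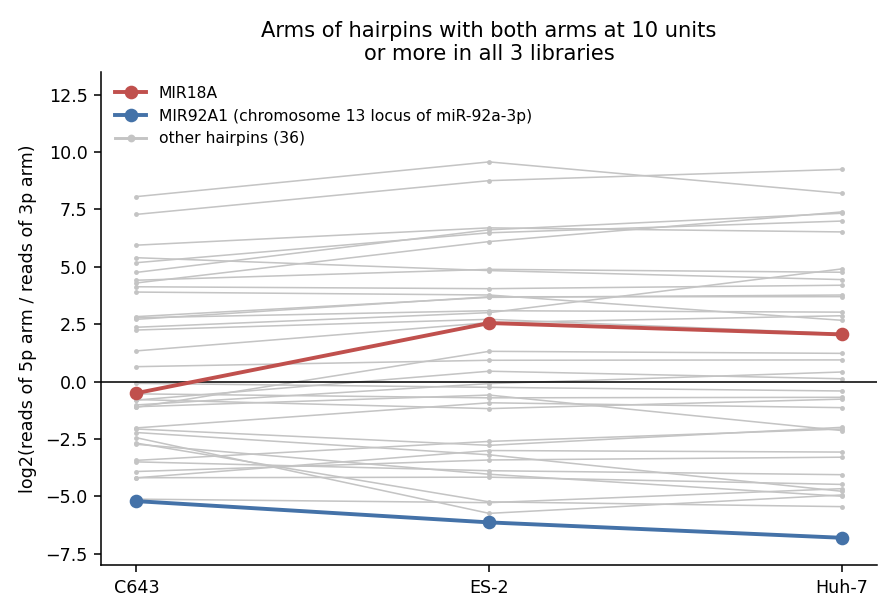
log2 ratio of 5p to 3p reads for 38 hairpins with both arms at 10 units or more in C643, ES-2 and Huh-7; each line joins the values of a hairpin and points above 0 have more 5p than 3p reads. MIR18A (red) lies above 0 in ES-2 and Huh-7 and at -0.50 in C643, while MIR92A1 (blue, chromosome 13 rows of miR-92a-3p) lies below 0 in all 3.

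ES-2 and Huh-7 share a deposited table and were compared on its scale, as log2(units + 1), over the 390 miRNAs at 10 units or more in at least one of them. All 9 members passed this filter. None of the 9 differed by 4-fold or more, against 47.2% of the 390 miRNAs. The members' differences (ES-2 minus Huh-7) ran from -0.45 for miR-18a-3p to 1.18 for miR-17-3p, with a median of 0.46, while the median over all 390 was -0.54. miR-17-5p, for instance, stood at 1168 and 848 units in ES-2 and Huh-7, a 1.38-fold difference (1.30 to 1.46), and miR-18a-5p at 549.8 and 533, or 1.03-fold (0.948 to 1.12).

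The direction depended on the scaling. On the deposited scale 8 of the 9 members were higher in ES-2, by share of reads 2 of 9 (miR-92a-1-5p, and miR-17-3p within counting error), and after alignment of the medians of 223 miRNAs again 8. By share, the median difference of the members was -0.45 and that of all 390 miRNAs -1.44. None reached 4-fold on any of these scales. An exact binomial test of the reads of both libraries, two-sided with Benjamini-Hochberg adjustment at 0.05, called 7 of the 9 members on the deposited scale and 344 of the 390 miRNAs. This compares 2 libraries rather than the lines.

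C643 was deposited apart from the other lines, perhaps with separate scaling, so its levels were set beside those of the other lines by share. The paper describes small RNA libraries made with a kit or by a service provider, without saying which for each line. Line, table and any difference in preparation cannot be told apart, neither in shares nor in ratios within a library. At least 4-fold lower in C643 than in ES-2 were 4 of the 9 members (miR-17-5p, miR-17-3p, miR-18a-5p and miR-20a-5p), against 9.69% of 351 miRNAs. Compared with Huh-7 there were 6 of 9, adding miR-18a-3p and miR-19a-3p, against 32.3% of 399 miRNAs. miR-17-3p, with no read in C643, passed the filter only through the other library and had to differ, and without it the counts were 3 and 5 of 8. The members' median log2 difference was -1.96 from ES-2 and -2.18 from Huh-7, where the medians over all miRNAs were 0.34 and -0.85. miR-17-3p is the lowest or second lowest of the 9 in both, so its exact value does not enter either median.

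Within the cluster the deficit in C643 was uneven. The share of miR-18a-5p in ES-2 and Huh-7 was 13.6-fold and 24.8-fold that in C643, the largest difference of a member with reads in every library. For miR-17-3p it was at least 73.8-fold and 59.0-fold, against the limit of 3 reads. For miR-17-5p it was 4.42-fold and 6.05-fold, for miR-20a-5p 4.11-fold and 4.55-fold, and for miR-92a-3p 2.08-fold and 2.92-fold. At the other end, the share of miR-92a-1-5p in ES-2 and Huh-7 was 1.10-fold and 0.981-fold that in C643. The share of miR-18a-3p in ES-2 and Huh-7 was 1.64-fold and 4.22-fold that in C643. Against ES-2 it was thus less reduced than miR-92a-3p. Of the 6 main arms miR-92a-3p, summed over loci, was the least reduced in C643. Of all 9 members the least reduced was miR-92a-1-5p, the other arm of MIR92A1.

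**Figure D3:**
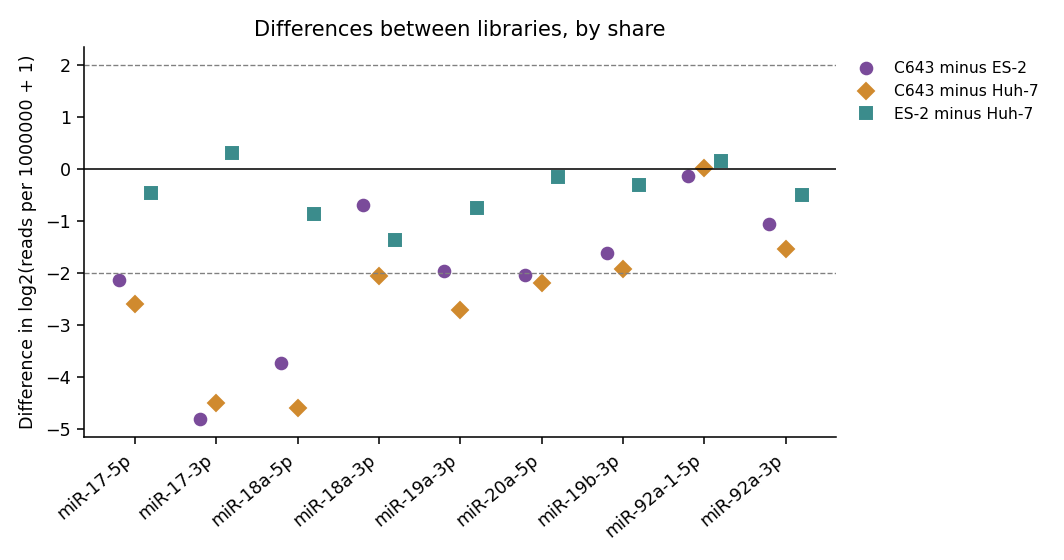
Difference in log2(reads per 1000000 miRNA reads + 1) between libraries for the 9 members in transcript order; dashed lines mark 4-fold either way. C643 minus ES-2 and C643 minus Huh-7 are lowest for miR-17-3p and miR-18a-5p and near 0 for miR-92a-1-5p, and ES-2 minus Huh-7 stays within 4-fold for all 9.

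Base composition was compared with the C643 differences, which for the members rest on 9 arms and the same C643 library. Spearman's rho of the share difference with GC content was 0.42 over the 9 members for C643 against ES-2, and 0.42 for C643 against Huh-7. Over all miRNAs with a sequence it was 0.05 and 0.07 among those past the filter. Between ES-2 and Huh-7 it was -0.09 over the members. The part of base composition in the differences of the members was not tested.

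Finally, the evenness of the change over the cluster was set against other clusters, defined as hairpins on one strand with neighbours at most 10000 bases apart and at least 3 of them with a main arm at 10 units or more in both libraries. The SD of the ES-2 minus Huh-7 log2 difference over the 6 main arms was 0.27, place 3 of 10 clusters from the smallest, the median of the others being 1.11. The smallest were those of MIR25 to MIR106B (0.21) and MIR182 to MIR183 (0.25), each with 3 main arms. The clusters are not all separate. miR-19b-3p and miR-92a-3p, summed over loci, also count in MIR363 to MIR106A (0.345). miR-24-3p counts in both MIR24-2 to MIR23A and MIR23B to MIR24-1. The differences of the 6 main arms ran from 0.04 for miR-18a-5p to 0.77 for miR-20a-5p. By SD, the main arms of the cluster kept their proportions more closely between ES-2 and Huh-7 than those of most other clusters.

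Between C643 and the other lines they did not. The SD was 0.89 for C643 minus ES-2, place 7 of 9 clusters with a median of 0.60 for the others, and 1.07 for C643 minus Huh-7, place 5 of 9 with a median of 1.03. These SDs were taken on the deposited scale, where a factor between libraries enters only through the pseudocount. By share they were also 0.89 and 1.07, in the same places, with medians of 0.60 and 0.90 for the others. A single member carried much of this spread. Without miR-18a-5p, which was left out after its values had been seen, the SD was 0.44 and 0.48 for the C643 comparisons and 0.22 for ES-2 minus Huh-7.

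**Figure D4:**
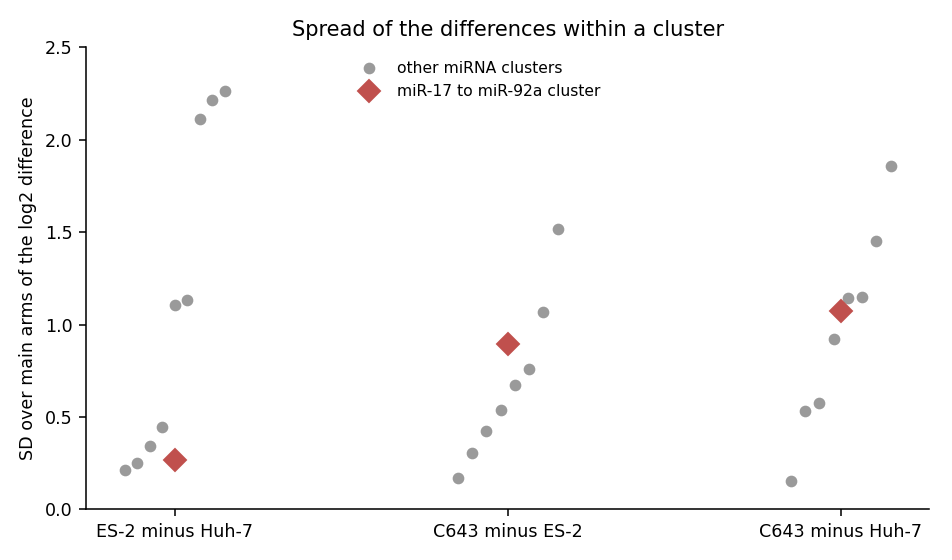
SD over main arms of the log2 difference, on the deposited scale, between libraries for the miR-17 to miR-92a cluster (red diamond) and other miRNA clusters (grey points, spread sideways by rank only). The cluster lies at 0.27 for ES-2 minus Huh-7, among the smallest of 10, and at 0.89 and 1.07 for the C643 comparisons, in the middle to upper range of 9.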

How the data were processed

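The deposited values, C643 in 1 table and the other 2 lines in another, are a signal the authors computed: reads per miRNA locus scaled by a library factor. They are named CPM, but the columns summed to 959302, 1154552 and 612015 units. The submitters' processing notes name cutadapt 1.14, Bowtie2 2.3.3, SAMtools 1.5, featureCounts 1.5.3 and edgeR 3.18.1 with hg38. The version of the miRNA annotation, how reads fitting more than one locus were placed, and any use of molecular identifiers were not given in the sources used here.

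Every nonzero value was a whole multiple of 1 read (tolerance 0.01 read; 100% of values), worth 0.117, 0.694 and 0.282 units in C643, ES-2 and Huh-7, so reads were recovered by division. Loci were summed per miRNA. Shares carry Wilson 95% intervals, and ratios and locus splits exact binomial ones. Log2 values used a pseudocount of 1 and a filter of 10 units. Sequences matched 2281 of 2588 names. With 1 library per line, no model across miRNAs was fitted. The comparison of reads was tested on simulated data. Python 3.11.15, pandas 2.3.3 and scipy 1.17.1 were used.

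The named miRNAs were the members, the other arms of their hairpins, paralogs and seed relatives, miR-21-5p, and the 5 miRNAs of most similar profile. Members, lists and tests were chosen with earlier results of these data known. Alternatives were other denominators, pseudocounts, filters, fold thresholds and scalings, and chromosome 13 loci only.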

Additional observations from a re-analysis of the deposited data

Results flagged for a closer look

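In 7 of the 36 member pairs the order within a library was turned in 1 library relative to the other two. These differences between lines were not tested, since each line has 1 library. In 5 pairs C643 stood apart. There the ratio of miR-17-5p to miR-92a-1-5p was 0.660, that of miR-18a-5p to miR-18a-3p 0.707, that of miR-18a-5p to miR-19a-3p 0.568, that of miR-18a-5p to miR-92a-1-5p 0.101 and that of miR-19b-3p to miR-92a-1-5p 0.518. All 5 ratios were above 1 in ES-2 and Huh-7: miR-18a-5p to miR-19a-3p, for example, stood at 1.96 and 2.14, and miR-17-5p to miR-92a-1-5p at 2.66 and 4.07.

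In the other 2 pairs Huh-7 stood apart, with miR-18a-5p at 1.28 of miR-19b-3p, against 0.195 in C643 and 0.865 in ES-2, and miR-19a-3p at 1.20 of miR-92a-1-5p, against 0.178 and 0.640. Pairs with miR-19b-3p depend on which of its rows are counted. With chromosome 13 rows only, miR-19b-3p to miR-92a-1-5p was below 1 in all 3 libraries (0.244, 0.684 and 0.878), and miR-18a-5p to miR-19b-3p was 0.414, 1.83 and 2.91 in C643, ES-2 and Huh-7. A pair that kept its order over both loci, miR-19a-3p to miR-19b-3p, then turned in Huh-7, from 0.599 to 1.36.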

How the results depend on the processing

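With chromosome 13 loci only, the cluster's share in C643, ES-2 and Huh-7 was 1.40%, 3.07% and 4.32%, and the ratio of miR-92a-3p to miR-17-5p was 55.9, 26.4 and 27.4. With 1000000 units as denominator the share was 2.55%, 6.56% and 4.85%, so that ES-2 then exceeded Huh-7, and without miR-21-5p in the denominator it was 3.72%, 7.91% and 11.9%. The members' median difference between ES-2 and Huh-7 turned from 0.46 to -0.45 by share of reads. At 2-fold, 2 members differed between these libraries on the deposited scale. Over the 390 miRNAs the median absolute log2 difference was 1.79, so most of them passed 2-fold. Chosen after seeing the data were the exact binomial test, the minimum of 100 units for arms and the spread without miR-18a-5p. The pair orders and spreads with chromosome 13 rows only, and the C643 spreads by share, were not planned either. The test called 7 members and 344 of the 390 miRNAs on the deposited scale. By library totals it called 8 members and 360 of the 390. At the minimum of 100 units 0 hairpins turned, MIR18A not included. Without miR-18a-5p the spread was 0.44 for C643 minus ES-2 and 0.48 for C643 minus Huh-7. In 14 further results of planned settings and 7 of added ones, direction and size were kept. No paired analysis was possible because a lone library stood for each line, and no replicate could be left out. The depth limits the arms with few reads, such as miR-17-3p at 45 and 47 reads in ES-2 and Huh-7.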

Other observations

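The 5 miRNAs at 0.01% or more in each library whose profile over the 3 libraries lay nearest to that of the summed members, of 91 candidates, were miR-26a-5p, miR-340-5p, miR-1307-3p, miR-744-5p and miR-374a-5p. Their distances in centred log2 share were 0.535, 0.545, 0.562, 0.596 and 0.607. miR-26a-5p held 0.893%, 1.29% and 2.95% in C643, ES-2 and Huh-7. The summed profile is mainly that of miR-92a-3p, whose own distance was 0.032, whereas miR-17-5p lay at 0.843 and miR-92a-1-5p at 1.143. With 3 libraries, such likeness rests on 3 points.

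The paralogous miR-106b to miR-25 cluster of chromosome 7, with the arms of MIR106B, MIR93 and MIR25 summed, held 0.853%, 0.792% and 2.65% in C643, ES-2 and Huh-7.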
